A study of Mus musculus with 26 samples.

Results

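Lysosomes are acidified by the vacuolar H+-ATPase (V-ATPase), a rotary pump built from a membrane-embedded V0 sector, through which protons pass, and a peripheral V1 sector, which hydrolyses ATP. The acid lumen lets hydrolases cleave proteins, glycans and lipids, and the membrane proteins, carriers and activators around them move the products out. Transcription of many of these genes is driven by the MiT/TFE factors Tfeb, Tfe3 and Mitf, which bind a palindromic E-box motif known as the CLEAR element. In brown adipose tissue (BAT), lysosomes take part in the turnover of lipid droplets and mitochondria. The expression of 43 V-ATPase and lysosome genes, taken as a list of names, was followed in BAT. They are 8 V0 subunits, 9 V1 subunits, 2 V-ATPase accessory proteins, 6 lysosomal membrane proteins, 6 proteases, 6 glycosidases and lipases, 3 lumenal carriers and activators and the 3 MiT/TFE factors, out of 50686 genes in the count table. All 43 passed the filter on low counts.

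The RNA came from supraclavicular BAT of male C57BL/6J mice, 12 to 16 weeks old, that carried a fat-specific Afadin knockout (labelled KO) or were control littermates (labelled WT). The knockout combines an Mllt4 flox allele with Cre driven by the adiponectin promoter, so that it is directed at adipocytes and not at the other cells of the tissue. All mice spent 2 weeks at thermoneutrality, given as 30 °C by the labels and as 29 °C by the methods of the study, and the cold groups then spent 6 h at 5 °C. The groups were WT30 (7 mice), KO30 (7 mice), WT5 (5 mice) and KO5 (7 mice).

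Total counts ran from 12705969 to 25732258 per mouse. Afdn, the targeted gene, did not bear out the label at 30 °C, with 151 to 214 normalised counts per 1000000 (CPM) in WT30 and 154 to 230.5 CPM in KO30. At 5 °C, all 7 KO5 mice (53.3 to 65.3 CPM) were below all 5 WT5 mice (67.9 to 79.2 CPM). The log2 fold change of Afdn there was -0.33, and it did not pass the test used below. The KO groups are therefore called mice labelled KO. Whole-tissue counts of Afdn also hold RNA of the cells at which the knockout is not directed. In the study, the rise of Afadin protein in the cold was smaller in knockout BAT than in control BAT. A supplementary figure of the study also compares Afadin protein between the genotypes at thermoneutrality, and its values are not given in the text. Kng1, which neighbours Adipoq, was at or below 0.0773 CPM in every WT mouse and at 7.35 CPM or more in every mouse labelled KO. The WT30 mouse numbered 7 stood apart, with 14.3% mitochondrial counts against 33.9% to 40.5% in the rest of its group. This share also varied in the other groups, from 26.2% to 38.55% in KO30, 26.1% to 33.8% in WT5 and 19.2% to 39.3% in KO5. The summed level of 6 skeletal muscle markers ran from 1.20 to 7125 CPM, and the 4 highest mice were WT30 7, WT5 16, KO5 24 and KO5 25. Brown adipocyte markers were present in all mice, and Ucp1 averaged 985 CPM in WT30 and 16000 CPM in WT5. The 10 markers, Ucp1 included, did not rise as a set. By the test used below, 3 of the 10 were higher in WT mice after cold (30%) and 4 lower (40%). Their median log2 fold change was -0.13, and 31.6% and 33.4% of all genes were higher and lower. In whole tissue, a change in the number of cells of a type and a change in RNA per cell cannot be told apart.

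The letters CACGTG (an E-box) and TCACGTGA (the core of the CLEAR element, which contains the first) were searched in RefSeq promoters on GRCm38.p6, from 250 bases before to 50 after each gene start. Both words are palindromic, so that 1 search covers both strands. Of the 43 genes, 35 had a promoter there, 12 of them (34.3%) held CACGTG and 8 (22.9%) held TCACGTGA. Over all 27025 genes with a promoter, the shares were 8.09% and 1.12%. The stretches below show the motif in capitals, 5′ to 3′ on the strand of the gene. They were chosen to show it in the promoters of genes with different cold responses in WT mice. The first 5 genes rose, Ctsd did not pass the test, and Mcoln1 and Ctsa fell.
Lamp1, chr8:13159088-13159160, plus strand: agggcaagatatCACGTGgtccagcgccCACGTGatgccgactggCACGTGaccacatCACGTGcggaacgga
Atp6v0b, chr4:117887330-117887377, minus strand: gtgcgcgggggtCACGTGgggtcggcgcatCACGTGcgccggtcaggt
Gla, chrX:134601180-134601245, minus strand: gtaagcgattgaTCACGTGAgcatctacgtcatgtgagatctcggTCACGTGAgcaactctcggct
Atp6v1a, chr16:44139375-44139400, minus strand: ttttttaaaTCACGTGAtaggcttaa
Atp6v0d1, chr8:105566052-105566077, minus strand: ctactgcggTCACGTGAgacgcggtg
Ctsd, chr7:142387910-142387935, minus strand: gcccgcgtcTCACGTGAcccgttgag
Mcoln1, chr8:3500464-3500489, plus strand: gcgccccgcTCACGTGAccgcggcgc
Ctsa, chr2:164833758-164833786, plus strand: tgTCACGTGAtgcagatgcTCACGTGAcc
Lamp1 carried 4 E-boxes, at bases -61, -45, -28 and -15 from its start, none of them in the 8-letter form. Gla, which rose, and Ctsa, which fell, each carried 2 copies of the 8-letter form. Atp6v0b carried 2 E-boxes, and so did Ctsd, Mcoln1 and Cln3, which did not rise in WT mice. For Ctsd and Mcoln1 only the copy within the 8-letter form is printed. In GENCODE M21, the stretches of Lamp1, Gla and Atp6v0d1 lie outside the gene, that of Atp6v1a lies in an intron, and the other 4 touch an annotated exon. The 8-letter form stood in 4 of 18 genes (22.2%) that rose in the cold in WT mice, in 2 of 8 (25.0%) that fell and in 2 of 9 (22.2%) that did not pass the test. CACGTG stood in 8 of 18 (44.4%), 2 of 8 (25.0%) and 2 of 9 (22.2%). These matches are descriptions of letters in a window, and binding at them was not tested.

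Cold exposure raised most V-ATPase and several lysosomal genes in WT mice and lowered others (edgeR's quasi-likelihood test over 17286 genes, Benjamini-Hochberg adjusted p below 0.05). Of the 43 genes, 22 rose (51.2%), 10 fell (23.3%) and 11 did not pass the test. Over all genes tested, 31.6% rose and 33.4% fell. The median log2 fold change was 0.42 for the 43 genes and -0.01 for all genes. The same counts of 22 and 10 were found without the 4 mice highest in muscle markers, an alternative chosen after the data had been seen.

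**Figure D1:**
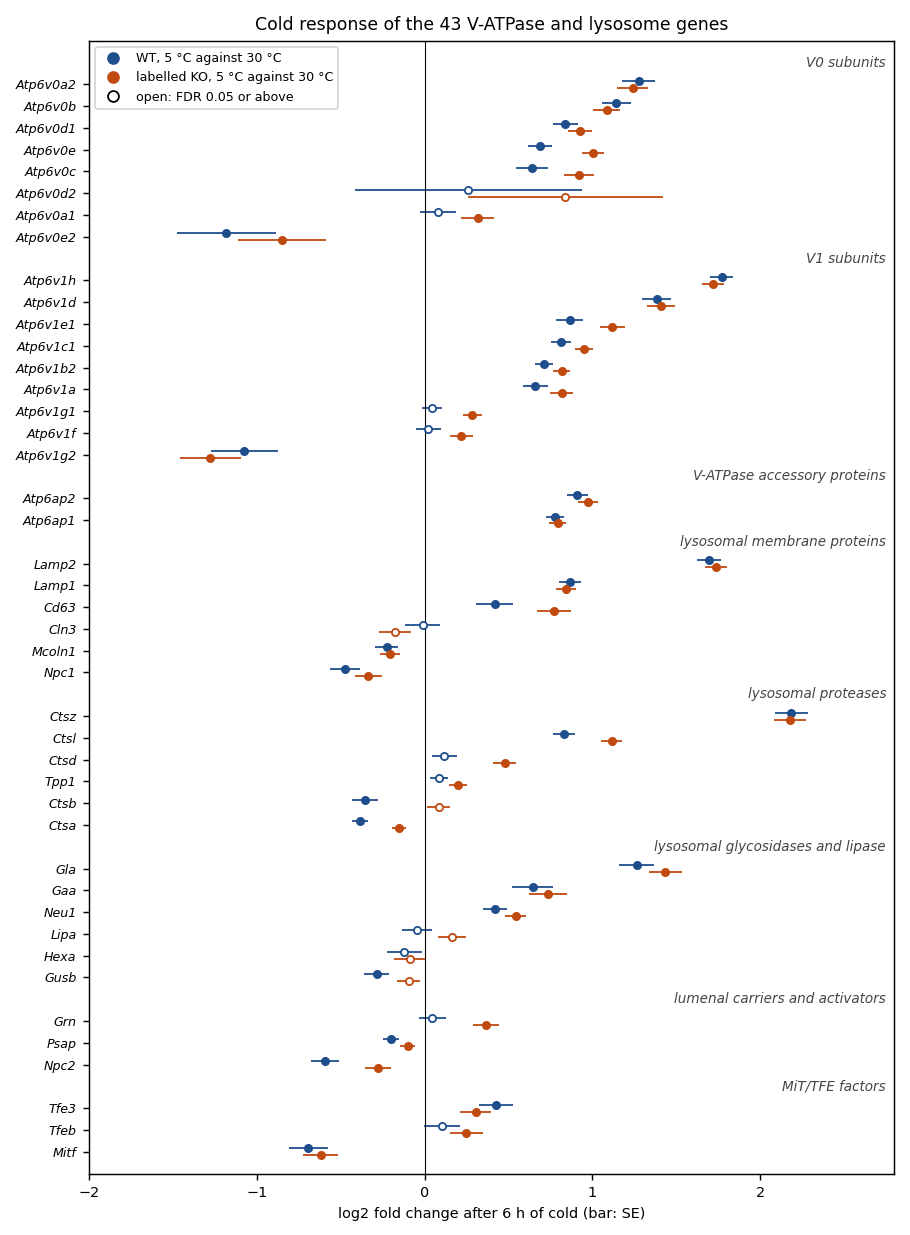
Log2 fold change of each of the 43 genes after 6 h at 5 °C, by role, in WT mice (blue) and mice labelled KO (orange), with the SE as a bar and open points where the adjusted p was 0.05 or above. Ctsz, Atp6v1h and Lamp2 lie farthest to the right in both genotypes, and Atp6v0e2 and Atp6v1g2 farthest to the left.

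Of the 8 V0 subunits, 5 rose in WT mice (62.5%) and 1 fell (12.5%), against 31.6% and 33.4% of all genes. The largest rise was that of Atp6v0a2, a membrane subunit of the proton channel, on chromosome 5 from 124628576 to 124724455 (mm10). It ran from 44.9 to 63.1 CPM in WT30 (median 51.3), and was at 131, 118, 127, 128 and 132 CPM in the 5 WT5 mice. No cold mouse overlapped a warm one, and the log2 fold change was 1.28 (SE 0.10, adjusted p = 1.22e-11). Atp6v0b, of the proteolipid ring, Atp6v0d1, which couples the ring to the stalk, Atp6v0e and Atp6v0c rose by 0.64 to 1.14 on the log2 scale. Atp6v0c encodes the main proteolipid of the ring. Its level is uncertain, because the annotation names 2 pseudogenes with which its reads can be shared. Atp6v0e2, a second gene for the small e subunit, fell. It was between 2.32 and 3.09 CPM in WT30 (median 2.66) and at 2.08, 0.836, 0.858, 1.25 and 0.864 CPM in WT5. All 5 cold mice were lower (log2 fold change -1.18, SE 0.30, adjusted p = 0.00102), although the WT5 16 mouse was close to the warm range. Atp6v0a1 (log2 fold change 0.08, adjusted p = 0.545) did not pass the test. Nor did Atp6v0d2, an osteoclast and kidney form whose group means were all below 1 CPM.

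Of the 9 V1 subunits, 6 rose (66.7%) and 1 fell (11.1%), against the same shares of all genes. Atp6v1h, a regulatory subunit that links ATP hydrolysis to the rest of the pump, lies on chromosome 1 from 5070018 to 5162529. It was between 52.8 and 68.5 CPM in WT30 (median 57.8) and at 201, 223, 184, 210.1 and 193 CPM in WT5. The groups stood far apart, with a fold change of 3.41 (log2 1.77, SE 0.07, adjusted p = 3.86e-17). Atp6v1d, part of the central rotor stalk, was between 39.7 and 54.4 CPM in WT30 (median 48.2) and at 124, 117, 122, 117 and 125 CPM in WT5. Again the groups did not overlap (log2 fold change 1.38, SE 0.09, adjusted p = 3.02e-13). The catalytic Atp6v1a and its partner Atp6v1b2 rose by 0.66 and 0.71 on the log2 scale, and the stalk subunits Atp6v1c1 and Atp6v1e1 by 0.81 and 0.87. Atp6v1f (0.02) and Atp6v1g1 (0.04) did not pass the test. Atp6v1g2, the form of the G subunit best known from neurons, fell from a range of 1.13 to 2.12 CPM in WT30 (median 1.93) to 1.07, 0.697, 1.03, 0.832 and 0.634 CPM. The groups did not overlap, with the lowest warm mouse just above the highest cold one (log2 fold change -1.08, SE 0.20, adjusted p = 3.76e-05). Both accessory proteins rose: Atp6ap2, the (pro)renin receptor needed for assembly of the pump, by 0.91 and Atp6ap1 by 0.78.

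**Figure D2:**
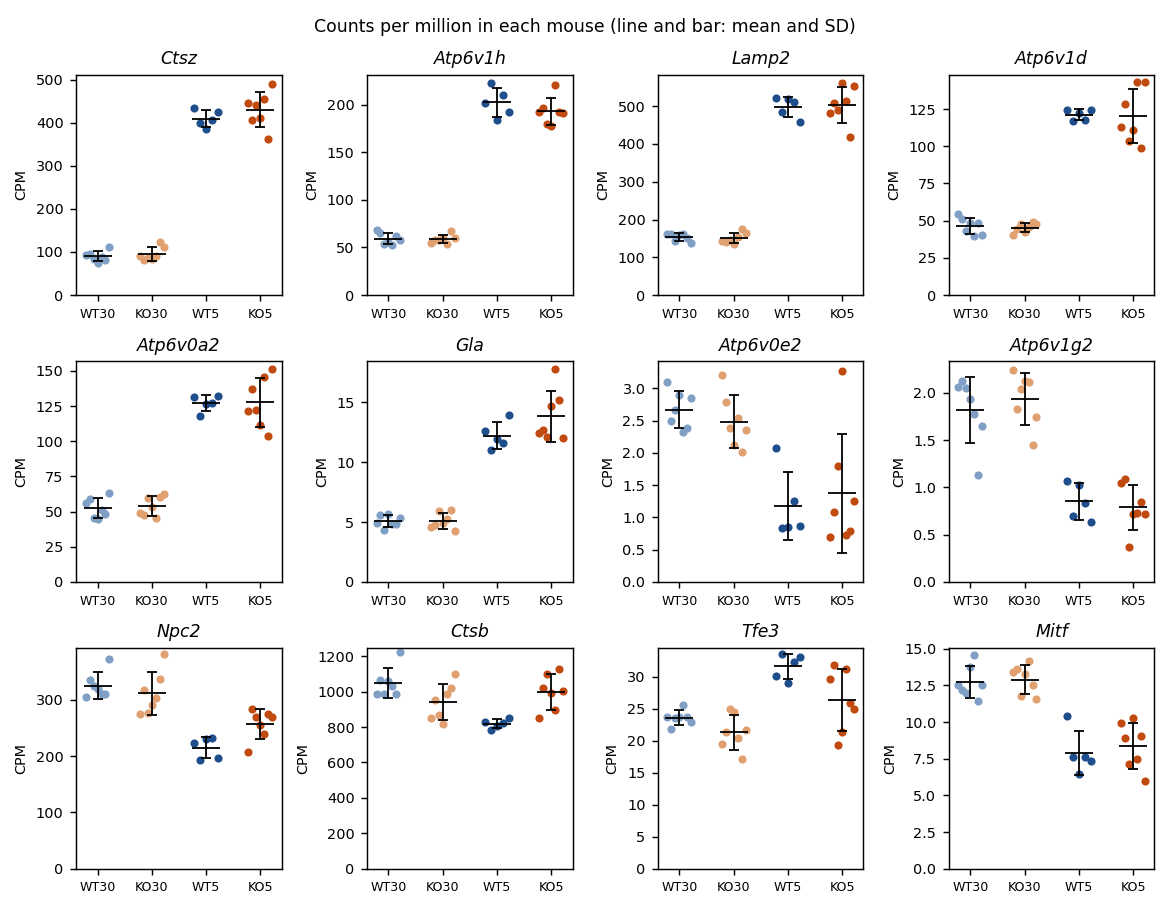
CPM of 12 genes in each mouse of the 4 groups (points), with the mean as a line and the SD as a bar, on axes that start at 0. In Ctsz, Atp6v1h, Lamp2, Atp6v1d, Atp6v0a2 and Gla every cold mouse is above every warm mouse. Ctsb is higher in all 7 KO5 mice than in all 5 WT5 mice, but the ranges nearly touch. The lowest KO5 mouse is at 850.1 CPM and the highest WT5 mouse at 849.5 CPM, and this difference did not pass the test.

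The summed level of the V0 subunits was 230 to 274 CPM in WT30 and 432 to 459 CPM in WT5, and that of the V1 subunits 492 to 571 CPM and 984 to 1016 CPM. Per kilobase of exon, the order of the V0 genes in WT30 was Atp6v0b (24.7 ± 1.13 CPM per kilobase, SD, n = 7), Atp6v0d1 (20.6 ± 1.60), Atp6v0e (12.4 ± 0.728), Atp6v0a2 (7.80 ± 1.05), Atp6v0a1 (6.50 ± 0.748), Atp6v0c (3.46 ± 0.307), Atp6v0e2 (1.12 ± 0.121) and Atp6v0d2 (0.159 ± 0.107). Atp6v0a2 and Atp6v0a1 were less than the sum of their SDs apart in the warm, and were at 18.9 ± 0.825 and 6.86 ± 0.420 in WT5 (n = 5). Of the V1 genes in WT30, Atp6v1f (30.3 ± 2.97) and Atp6v1g1 (27.6 ± 1.29) were highest and did not differ beyond their spread, while Atp6v1h (6.09 ± 0.603) was eighth of 9 and Atp6v1g2 (0.725 ± 0.138) last. In WT5, Atp6v1h was at 20.8 ± 1.55. These levels depend on the length used, and with the longest transcript in place of all exons Atp6v1h was at 12.3 in WT30.

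The balance between alternative forms of a subunit was then taken in each mouse as the log2 ratio of their counts. The 6 pairs were chosen after the values of most of these genes had been seen, and their ratios are given as a description, with no test. In WT mice, Atp6v0a2 over Atp6v0a1 was 0.30 ± 0.17 (SD, n = 7) in the warm and higher by 1.20 in the cold (n = 5). Atp6v0e over Atp6v0e2 went from 4.10 ± 0.15 to 6.04 ± 0.54, Atp6v1g1 over Atp6v1g2 from 4.11 ± 0.34 to 5.23 ± 0.32, and Atp6v1c1 over Atp6v1c2 from 5.90 ± 0.56 to 8.17 ± 1.11. Atp6v0a2 over Tcirg1, another gene for the a subunit, went from 1.53 ± 0.22 to 3.48 ± 0.29. Atp6v0d1 over Atp6v0d2 was at 6.51 ± 0.80 and 7.02 ± 0.61, with overlap between warm and cold mice. In mice labelled KO, the ratio of Atp6v0a2 to Atp6v0a1 was higher by 0.95 in the cold, with overlap through KO5 27, which had the highest Atp6v0a1 of its group (76.0 CPM). The differences for Atp6v0e, Atp6v1g1, Atp6v1c1 and Atp6v0a2 over Tcirg1 were 2.03, 1.58, 2.58 and 1.84, and that for Atp6v0d1 was 0.19, again with overlap. Atp6v1c2 was below 1 CPM in the mean of each WT group, so that its ratio, like that of Atp6v0d2, rests on few counts. Tcirg1, the a3 isoform of the V0 a subunit, best known from osteoclasts, fell in WT mice (log2 fold change -0.64, SE 0.13, adjusted p = 0.000104).

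**Figure D3:**
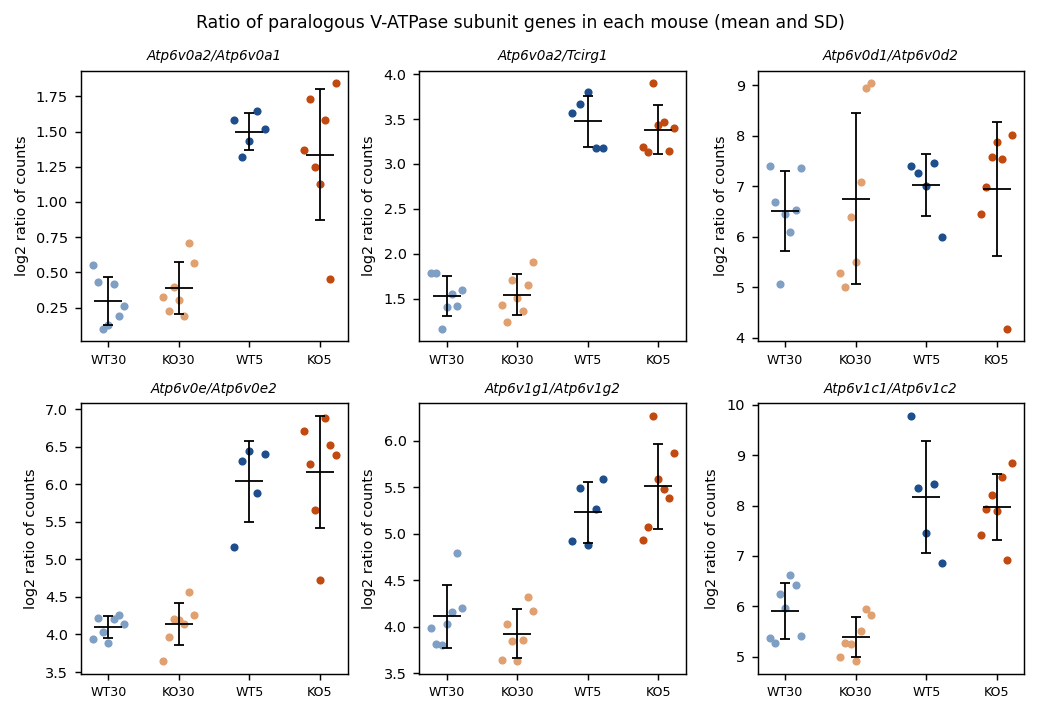
Log2 ratio of the counts of paralogous subunit genes in each mouse (points), with the mean as a line and the SD as a bar. WT5 and WT30 mice overlap for Atp6v0d1 over Atp6v0d2, and in the other 5 pairs every WT5 mouse is above every WT30 mouse.

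Of the 6 membrane proteins, 3 rose in WT mice (50%) and 2 fell (33.3%), against 31.6% and 33.4% of all genes. Lamp2, a glycoprotein that lines the lysosomal membrane and serves in chaperone-mediated autophagy, lies on chromosome X from 38401357 to 38456454. It was between 138 and 163 CPM in WT30 (median 158) and at 521, 484, 519, 511 and 458 CPM in WT5. The lowest cold mouse was far above the highest warm mouse (log2 fold change 1.70, SE 0.07, adjusted p = 8.12e-17). Lamp1, its abundant relative whose 4 E-boxes are printed above, rose from 350.1 ± 14.9 to 638 ± 23.7 CPM (log2 fold change 0.86, SE 0.06, adjusted p = 5.66e-12). The tetraspanin Cd63, for which the annotation names 1 pseudogene that can share its reads, rose by 0.42. Npc1, which exports cholesterol from the lysosome, was between 63.7 and 102 CPM in WT30 (median 92.4) and at 63.5, 58.8, 65.9, 60.2 and 64.1 CPM in WT5. The ranges met only through WT30 7, the lowest warm mouse (log2 fold change -0.47, SE 0.09, adjusted p = 3.98e-05). Npc2, which hands cholesterol to Npc1 in the lumen, fell from between 305 and 373 CPM (median 319) to 223, 194, 230.3, 232 and 196 CPM. No mice overlapped (log2 fold change -0.60, SE 0.08, adjusted p = 6.86e-07). The calcium channel Mcoln1 fell by 0.23, and Cln3 (-0.01) did not pass the test.

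The 6 proteases went in different directions. Ctsz (cathepsin Z, a carboxypeptidase, on chromosome 2 from 174427493 to 174439039) had the largest change of all 43 genes. It was between 73.9 and 112 CPM in WT30 (median 89.3) and at 433, 399, 387, 406 and 425 CPM in WT5, a fold change of 4.55 (log2 2.19, SE 0.10, adjusted p = 5.35e-16). The lowest cold mouse was far above the highest warm one. Per kilobase, Ctsz went from 62.5 ± 8.36 in WT30 to 284 ± 13.2 in WT5, a level next to that of Ctsd, the major aspartic protease (261 ± 12.1 in WT5). Ctsl rose by 0.83. An antisense gene overlaps 26.8% of its exon length, and whether the counting used strand is not given in the sources used here. Ctsa, which protects neuraminidase, fell from between 68.3 and 77.8 CPM (median 70.4) to 50.8, 55.6, 54.9, 54.5 and 56.5 CPM. All cold mice were lower (log2 fold change -0.38, SE 0.05, adjusted p = 9.20e-08). Ctsb, cathepsin B, on chromosome 14 from 63122462 to 63145923, fell from between 987 and 1223 CPM (median 1033) to 829.8, 786, 808, 822 and 849.5 CPM. All cold mice were lower here too (log2 fold change -0.36, SE 0.08, adjusted p = 0.000219). Ctsd (0.12, SE 0.08, adjusted p = 0.178), the gene nearest to the threshold, and the tripeptidyl peptidase Tpp1 (0.09) did not pass the test.

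Among the glycosidases and lipase, Gla (alpha-galactosidase A, on chromosome X from 134588149 to 134601125) rose from between 4.38 and 5.68 CPM (median 4.90) to 12.6, 11.0, 11.9, 11.6 and 13.9 CPM. The groups did not overlap (log2 fold change 1.26, SE 0.10, adjusted p = 4.77e-11). Gaa, which degrades glycogen, rose by 0.64 and the sialidase Neu1 by 0.42. Gusb, the beta-glucuronidase, fell (log2 fold change -0.29, SE 0.08, adjusted p = 0.00175), and Hexa (-0.12), a chain of beta-hexosaminidase, and Lipa (-0.05), the acid lipase, did not pass the test. The saposin precursor Psap, the highest of the 43 genes per kilobase (526 ± 28.0 in WT30), fell by 0.20, and Grn (0.05), the progranulin gene, did not pass the test.

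The 3 MiT/TFE factors diverged. Tfe3 was between 21.8 and 25.6 CPM in WT30 (median 23.7) and at 30.01, 33.6, 29.1, 32.3 and 33.1 CPM in WT5, without overlap (log2 fold change 0.42, SE 0.10, adjusted p = 0.000682). Scaled by library size alone, the value was 0.30 (adjusted p = 0.0617). Mitf, the melanocyte factor, was between 11.5 and 14.6 CPM in WT30 (median 12.5) and at 10.4, 7.59, 6.44, 7.59 and 7.32 CPM in WT5. All cold mice were lower, WT5 16 the least so (log2 fold change -0.69, SE 0.12, adjusted p = 1.17e-05). Tfeb was between 10.6 and 15.3 CPM in WT30 (median 12.6) and at 15.6, 11.8, 14.1, 12.1 and 15.1 CPM in WT5. These ranges overlapped (log2 fold change 0.10, SE 0.11, adjusted p = 0.412), and with library size alone the value was -0.03. Nuclear entry of these factors is controlled after transcription and was not measured here.

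To set these genes beside the rest of the organelle, 99 other lysosome genes were taken in 6 hand-written lists, of which 95 were tested. In WT mice, 31 rose (32.6%) and 37 fell (38.9%), against the 31.6% and 33.4% of all genes given above, and their median log2 fold change was -0.03. The 35 other hydrolases went mostly down, with 4 higher (11.4%) and 21 lower (60%, median -0.46). Their largest falls were those of Sgsh and Naglu, which degrade heparan sulfate, and Glb1, the beta-galactosidase. Sgsh went from 9.42 ± 1.38 to 2.20 ± 0.626 CPM (log2 fold change -2.08, SE 0.15), Naglu from 13.3 ± 1.47 to 3.59 ± 0.471 CPM (-1.88, SE 0.10) and Glb1 from 17.1 ± 0.941 to 6.10 ± 0.630 CPM (-1.48, SE 0.08). The 19 genes listed as regulators of MiT/TFE factors at the lysosome went mostly up, with 12 higher (63.2%) and 2 lower (10.5%, median 0.66). Tfec is in this list and among its rises, although it is itself a MiT/TFE gene. The largest rises of all 95 were those of Tfec, a further MiT/TFE gene at a low level (0.261 ± 0.0737 to 1.30 ± 0.367 CPM, log2 2.28, SE 0.32), the channel Tpcn2 (9.64 ± 1.504 to 35.7 ± 2.02 CPM, log2 1.89, SE 0.11) and Fnip1, the partner of folliculin (90.1 ± 12.9 to 269 ± 13.5 CPM, log2 1.58, SE 0.09). Membrane and transport genes (8 higher, 34.8%, and 6 lower, 26.1%, of 23), assembly factors of the pump (5 higher, 50%, and 2 lower, 20%, of 10), sorting genes (2 higher, 4 lower of 6) and paralogous subunits (0 higher, 2 lower of 2 tested) made up the rest. No test of one list against another was made.

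**Figure D4:**
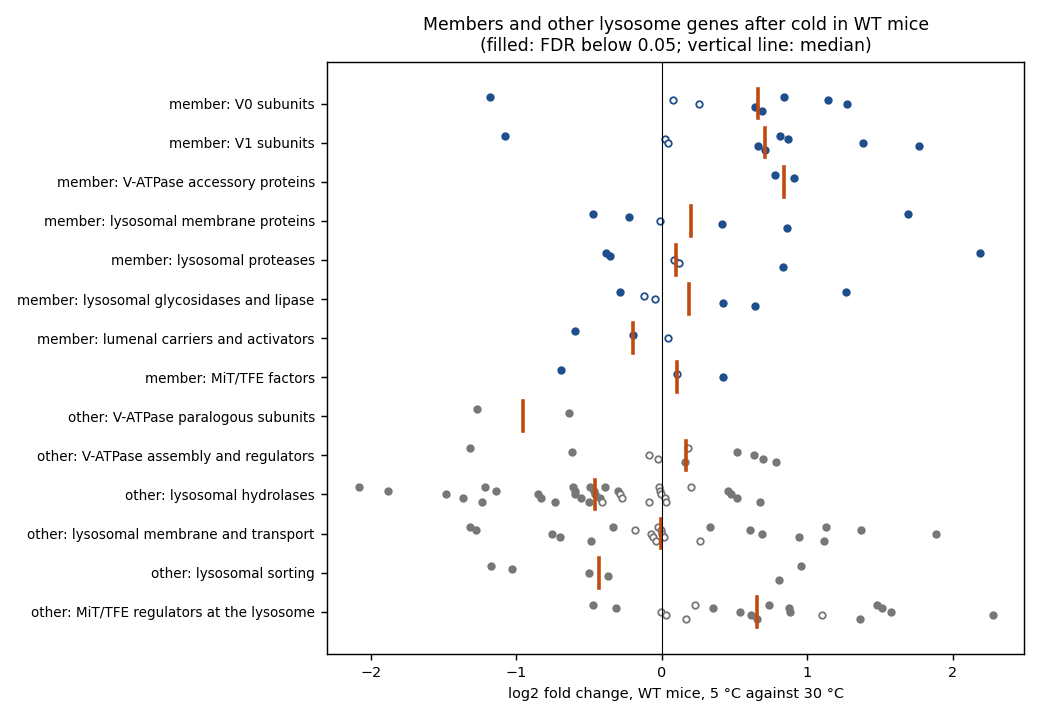
Log2 fold change in WT mice after cold for each gene of the 8 roles of the 43 genes (blue) and of the 6 lists of other lysosome genes (grey), filled where the adjusted p was below 0.05, with the median of each list as a vertical line. The V0, V1 and accessory medians lie between 0.66 and 0.84, and that of the other hydrolases at -0.46.

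Markers of other cell types also changed with temperature in WT mice. Of 13 macrophage markers, 4 rose (30.8%) and 4 fell (30.8%), near the 31.6% and 33.4% of all genes. Their sum was 272 to 406 CPM in WT30 and 302 to 367 CPM in WT5. Csf1r and Adgre1 were lower (log2 fold change -1.03 and -0.68) and Mrc1 higher (0.78). Of 6 endothelial markers, 3 rose (50%, Pecam1, Kdr and Cdh5) and 3 fell (50%, Tie1, Tek and Erg). Their sum was 468 to 625 CPM in WT30 and 733 to 842 CPM in WT5. Of 5 neutrophil markers, 4 rose (80%), and the log2 fold changes of all 5 were between 0.63 and 4.15. Their sum, with a mean of 2.94 CPM in WT30 and 9.82 CPM in WT5, was 1.81 to 6.29 and 6.18 to 13.0 CPM. The median log2 fold change of 5 red blood cell markers was 0.07. Their part in the changes of the lysosomal genes was not tested.

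In mice labelled KO, 29 of the 43 genes rose after cold (67.4%) and 8 fell (18.6%), against 33.7% and 34.9% of all genes. The share of rises among the calls depended on the scaling: 29 rose and 8 fell with TMM factors, 21 and 11 with library size alone and 23 and 11 with upper-quartile factors. The median of all genes was -0.03, -0.34 and -0.18 under these, and that of the 43 genes 0.54, 0.23 and 0.39. Of the V0 subunits 6 rose and of the V1 subunits 8, and both accessory proteins rose. The largest rises had log2 fold changes of 2.18 for Ctsz (SE 0.10), 1.74 for Lamp2 (SE 0.07), 1.72 for Atp6v1h (SE 0.07), 1.43 for Gla (SE 0.10), 1.41 for Atp6v1d (SE 0.08) and 1.24 for Atp6v0a2 (SE 0.09). Ctsz was between 80.5 and 124 CPM in KO30 and between 363 and 491 CPM in KO5, and Atp6v1h between 53.5 and 66.8 CPM and between 178 and 221 CPM. Neither overlapped. Among the falls, Atp6v1g2 was at -1.28 (SE 0.18) and Atp6v0e2 at -0.85 (SE 0.26), the latter with overlap through KO5 25 (3.28 CPM). Ctsd rose by 0.48 (SE 0.07, adjusted p = 9.05e-07), though with library size alone it was 0.16 (adjusted p = 0.232). Tfe3 (0.30) and Tfeb (0.25) passed the test with TMM factors, but neither did so with library size alone (0.01 and -0.09) or upper-quartile factors (0.15 and 0.09). Tfeb also missed it when any of 6 single mice was left out (KO30 8, 10, 13 and 14, and KO5 24 and 25), with values of 0.17 to 0.23. Markers of other cells moved in these mice too. Of the 13 macrophage markers 8 rose (61.5%) and 2 fell (15.4%), with a median log2 fold change of 0.40. All 5 red blood cell markers (median 1.24) and all 5 neutrophil markers (median 3.35) rose. Of the 6 endothelial markers 3 rose (50%) and 3 fell (50%). The part of these cells in the values of the 43 genes was not tested.

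Between mice labelled KO and WT mice, none of the 43 genes passed the test at either temperature. At 30 °C, 0.081% of all genes passed, and at an unadjusted p under 0.05 there were 4 of the 43 (9.3%) and 7.65% of all genes. The values nearest to the threshold were Atp6v0c (log2 fold change -0.27, SE 0.09, adjusted p = 0.419), Ctsd (-0.20, SE 0.07, adjusted p = 0.42) and Ctsb (-0.16, SE 0.07, adjusted p = 0.601). DESeq2 also passed 0. At 5 °C, 0.139% of all genes passed, and 11 of the 43 (25.6%) and 13.4% of all genes were at an unadjusted p under 0.05. The nearest were Ctsa (0.19, SE 0.05, adjusted p = 0.0901), Ctsb (0.29, SE 0.08, adjusted p = 0.116) and Atp6v0e (0.24, SE 0.07, adjusted p = 0.136). DESeq2 passed Ctsa (adjusted p = 0.0108) and Ctsb (adjusted p = 0.0286) there, as did edgeR without KO5 22 (adjusted p = 0.0473 and 0.0476). Ctsa was at 57.5 to 66.6 CPM in KO5 (median 61.9), above all 5 WT5 mice.

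**Figure D5:**
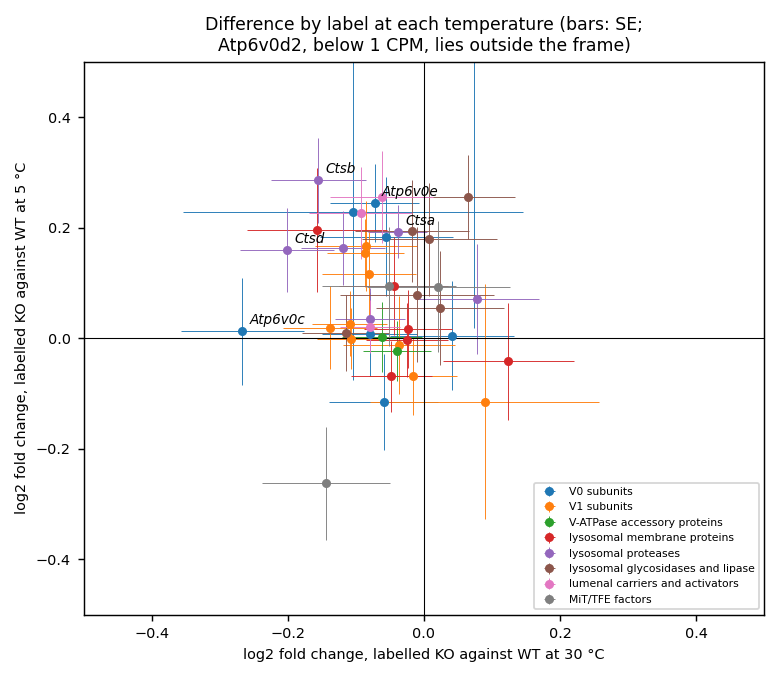
Log2 fold change of mice labelled KO against WT mice at 30 °C (horizontal) and at 5 °C (vertical) for the 43 genes, coloured by role, with the SE as bars. None passed the test at either temperature, and Atp6v0c, Ctsd, Ctsb, Ctsa and Atp6v0e are named.

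The cold response itself was compared between genotypes as an interaction. Of all genes 1.16% passed, and of the 43 only Ctsb did. It was between 817 and 1098 CPM in KO30 (median 953) and between 850.1 and 1125 CPM in KO5 (median 1006), ranges that overlapped (log2 fold change 0.08, SE 0.07, adjusted p = 0.29). In WT mice it fell, as given above. The difference of the cold responses, KO minus WT, was 0.44 on the log2 scale (SE 0.10, adjusted p = 0.0355). This call was close to the threshold. It was lost with library size alone (0.25, adjusted p = 0.519), without the filter on low counts (0.44, adjusted p = 0.104), without the 4 mice highest in muscle markers, and in 12 of the 26 fits that left out 1 mouse (WT30 2, 4 and 6, KO30 8, 10 and 11, all 5 WT5 mice and KO5 24), where the adjusted p ran from 0.0501 to 0.0808. Without WT30 7, which had the highest Ctsb of its group, the value was 0.40 (adjusted p = 0.0295). Of the next genes, Ctsa (0.23, adjusted p = 0.0734) and Ctsd (0.36, adjusted p = 0.0768) passed with DESeq2 (0.013 and 0.0253) and with edgeR without KO5 22 (0.044 and 0.0332). In all, 35 of the 43 values were positive (81.4%) against 56.7% of all genes, and the median was 0.14 against 0.04. With library size alone the medians were -0.07 and -0.15. At an unadjusted p under 0.05 there were 11 of the 43 genes (25.6%) and 16.2% of all genes.

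The macrophage markers summed to 298 to 462 CPM in KO5 against 302 to 367 CPM in WT5, the 5 neutrophil markers to 5.68 to 65.0 CPM against 6.18 to 13.0 CPM and the 5 red blood cell markers to 517 to 1497 CPM against 417 to 684 CPM. Cathepsins are abundant in macrophages, and the part of these cells in the values of Ctsb, Ctsa and Ctsd was not tested. Fdft1, on the opposite strand, overlaps 12.8% of the exon length of Ctsb, and Pltp overlaps 10.5% of that of Ctsa. Genes on the opposite strand also overlap Hexa (12.8%), Atp6v0b (11.8%), Atp6v0a2 (9.9%) and Lamp1 (9.3%), and smaller shares of some others. Gm49369, on the same strand, overlaps 34.4% of that of Ctsd, so that reads of the shared part are uncertain.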

How the data were processed

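BAT RNA of 26 mice was measured by rRNA-depleted, stranded RNA-sequencing with 100-bp single reads. Alignment by the authors used STAR 2.5.2b and mm10, and they deposited raw counts per gene from featureCounts 1.5.2 on GENCODE M13. All 26 columns were used and matched to samples by title. Gene symbols, positions and exon lengths were taken from GENCODE M21. The authors' model was followed: filterByExpr and quasi-likelihood tests on the 4 groups (edgeR 4.0.16 in its legacy mode, R 4.3.3), with TMM factors and Benjamini-Hochberg adjustment over 17286 genes at 0.05. DESeq2 1.42.0, other scalings, filters, fits and omissions were the alternatives. CPM used TMM-scaled totals, and levels per kilobase used the union of exons. Each of the 73 within-group pairs of mice differed beyond counting noise. The edgeR fit, and no other step, was tested on simulated counts. There, genes were changed in WT5 only, and all genes had the same dispersion. The 43 genes and the other lists were chosen with earlier results of these data known, although the list of 43 is a list of names that uses no value. Within each role, the largest rise and the largest fall in WT mice were described, with the 6 largest changes, the MiT/TFE factors, those called or nearest to a call between labels, and the gene nearest to the threshold. Of the other lysosome genes, the 3 largest rises and falls were named. Other genes were named for context, after their values were seen. Intervals and p-values cover only the spread between these mice.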

Additional observations from a re-analysis of the deposited data

Results flagged for a closer look

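Among 20 described genes in 4 groups (80 sets of mice), 5 values lay far from the rest of their group by Dixon's criterion, which flags about 1 in 20 sets by chance. Ctsa (77.8 CPM) and Ctsb (1223 CPM) were highest in the WT30 7 mouse, the one with few mitochondrial counts and many muscle counts. Mitf was highest in WT5 16 (10.4 CPM), Atp6v0e2 highest in KO5 25 (3.28 CPM) and Atp6v0e lowest in WT5 17 (69.0 CPM).

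The cold response of Ctsb differed between genotypes by 0.44 on the log2 scale (edgeR, adjusted p = 0.0355). Over 30 alternatives the value ran from 0.25 to 0.48 and the adjusted p from 0.00382 to 0.519, and it passed in 16 of them.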

How the results depend on the processing

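The counts of 22 rises and 10 falls in WT mice were the same in every fit that left out 1 mouse, and over the other settings ran from 20 to 22 and from 9 to 11. In mice labelled KO, leaving out 1 mouse gave 28 to 30 rises and 7 to 9 falls, and the other settings 21 to 29 and 7 to 11. The other lysosome genes gave 30 to 32 rises and 37 to 39 falls with 1 mouse left out, and 29 to 31 and 37 to 41 in the other settings. Between labels at 30 °C the count was 0 in all settings run. At 5 °C it was 2 with DESeq2 and 0 to 2 with 1 mouse left out, the 2 coming without KO5 22. For the difference of the cold responses the count of 1 became 3 with DESeq2, 0 with library size alone, without a filter or without the 4 mice highest in muscle markers, and 0 to 3 with 1 mouse left out.

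Signs turned for values that were small or not past the threshold, and for Tfeb in mice labelled KO. With library size alone, Ctsd in WT mice was at -0.0147, Tfeb in WT mice at -0.0309, Tfeb in mice labelled KO at -0.0879 and Ctsb in mice labelled KO at -0.2435. With upper-quartile factors, Tfeb in WT mice was at -0.002983 and Ctsb in mice labelled KO at -0.07404. The scaling moved the median of all genes by as much, so these directions are relative to it. No paired analysis was possible because every mouse has its own number and none is shared between groups. The 26 totals limit the precision of genes near 1 CPM, such as Atp6v1g2 and Atp6v0e2.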
